A study of Mus musculus with 5 samples.

Results

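The genes described here encode chromatin remodellers, Polycomb proteins, histone-modifying enzymes and readers of methylated DNA, 68 genes of the 16032 with a symbol on the array. They were taken by name: every probe whose platform symbol began with Smarc, or with Arid, Chd, Cbx, Hdac, Kdm, Setd or Mbd followed by a digit, and Eed, Ezh1, Ezh2, Suz12, Rnf2 and Bmi1. These were 71 of the 22871 probes, and Cbx3, Chd3 and Chd8, with several probes each, were represented by their brightest probe on average. No platform symbol began with Kdm, because the lysine demethylases stand under older names, and they are given further below as a separate list.

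Expression was measured on 5 one-colour arrays of total RNA from male mouse embryonic stem (ES) cells of strain 129, derived from the line E14tg2a, and from their descendants. All of the cells carried myr-Akt-Mer, a membrane-anchored Akt kinase that 4-hydroxytamoxifen (4OHT) switches on, and the promoter that drives it is not given in the sources used here. Line 21 ES cells gave 1 array without 4OHT and 1 array with 1 µM 4OHT. Akt-spheres, which the series calls primordial germ cell-like, were grown with 1 µM 4OHT on a layer of OP9 stromal cells that was removed by a plating step, with 1 array for line 21 and 1 for line 42. Reverted cells, 1 array, were ES-like cells obtained from line 21 spheres on embryonic fibroblasts, with 4OHT given for a time per their label. No line 42 ES cells were analysed here, so line and replicate cannot be told apart among the spheres. The values are the deposited probe intensities on a linear scale, and levels are given throughout in the order ES cells without 4OHT, ES cells with 4OHT, reverted cells, line 21 spheres, line 42 spheres. The intensity of 1 probe is not comparable with that of another. In bulk RNA, fewer cells that express a gene and less RNA per cell cannot be told apart.

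Remodellers are ATP-driven motors that slide, evict or exchange nucleosomes. The SWI/SNF (BAF) complex carries 1 of a pair of alternative motors, Smarca4 or Smarca2, and ES cells are known for a form that holds Smarca4. Polycomb repressive complex 2 (PRC2), built on Suz12, Eed and the enzyme Ezh2 or Ezh1, methylates histone H3 at lysine 27, and Eed binds the finished mark. Polycomb repressive complex 1 (PRC1) holds a Cbx subunit that reads this mark and the ubiquitin ligase Rnf2, and Cbx7 is its best-known reader in ES cells.

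Promoters are shown for Smarca2, which was higher in spheres, and for Eed and Cbx7, with lower values there that did not pass the test given below. Other chromatin genes, such as Arid3b and Hltf, came closer to its threshold than Eed and Cbx7. The promoters are the starting point for any later look at DNA or histone marks of these genes. The windows are the 250 bases before the gene start, 5′ to 3′ on the gene's strand, from RefSeq on GRCm38.p6, with every CG dinucleotide in capitals. They lie upstream of the transcript at chr19:26604910-26605159 on the plus strand (Smarca2), chr7:89980977-89981226 on the minus strand (Eed) and chr15:79932647-79932896 on the minus strand (Cbx7).
Smarca2: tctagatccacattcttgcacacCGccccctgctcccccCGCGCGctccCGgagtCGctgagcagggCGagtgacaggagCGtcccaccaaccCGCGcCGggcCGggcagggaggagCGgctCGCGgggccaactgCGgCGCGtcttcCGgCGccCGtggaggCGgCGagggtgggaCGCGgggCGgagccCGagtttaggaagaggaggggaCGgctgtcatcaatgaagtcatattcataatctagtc
Eed: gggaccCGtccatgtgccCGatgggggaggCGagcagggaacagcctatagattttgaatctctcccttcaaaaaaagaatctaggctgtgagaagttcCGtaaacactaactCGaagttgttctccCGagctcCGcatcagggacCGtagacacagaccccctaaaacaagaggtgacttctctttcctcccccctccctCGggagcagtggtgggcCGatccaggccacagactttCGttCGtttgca
Cbx7: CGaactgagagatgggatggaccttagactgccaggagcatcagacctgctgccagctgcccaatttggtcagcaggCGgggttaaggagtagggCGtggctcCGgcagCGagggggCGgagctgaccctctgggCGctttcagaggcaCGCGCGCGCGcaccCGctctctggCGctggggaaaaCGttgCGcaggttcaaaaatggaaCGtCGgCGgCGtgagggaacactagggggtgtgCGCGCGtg
The Smarca2 window held 28 CG dinucleotides, a number reached by 7.61% of all 32851 promoter windows. That of Cbx7 held 23, reached by 13.3%, and that of Eed held 12, reached by 33.5%. Of the 68 genes, 53 had a window in the table, 70 windows in all, and the median was 20.5 CG dinucleotides (0 to 40) against 6 (0 to 56) over all windows. Counted on both strands, the GC box GGGCGG stood in 67.1% of the chromatin gene windows and in 32.7% of all windows, the letters CCAAT in 40% and 33.8%, and the E-box CACGTG in 5.71% and 6.02%. The Smarca2 window held 2 GC boxes, the Cbx7 window 1 GC box and 1 CCAAT, and the Eed window none of these 3 motifs. A match describes the letters only, and the GC box itself contains a CG dinucleotide.

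The median over listed probes was 49.995 to 50.015 on the 5 arrays. Values scaled per array to a shared median would look so, and this median therefore does not measure depth of signal. The summed intensity was 15213700 to 19321100, and 6.09% to 9.11% of probes had no value. Genes with an empty cell on a compared array, or under the 40th percentile (an intensity of 28.6 to 29.3) on each of them, were not tested, and 56 of the 68 chromatin genes passed. The genes that did not were Chd5, Chd9, Hdac4, Hdac7, Hdac9, Hdac11, Mbd3l2, Arid4b, Arid5b, Bmi1, Setd1b and Smarcc2, of which Chd9, Hdac4, Arid4b, Bmi1 and Smarcc2 lacked a value on at least 1 array. Smarca2 passed through the sphere arrays alone, Ezh1 and Setd7 through reverted cells alone, and Arid5a and Setd5 through line 21 spheres alone, so these were bound to differ to some degree. Of 9 fixed ES cell genes, limma called 6 lower in spheres (summed intensity 86174 to 98433 on the ES-type arrays, 11158 and 15432 in spheres), while Nanog, a pluripotency factor, stood at 3839 to 5523 on all 5 arrays. Among those called, Tbx3 and Fgf4 passed the filter through the ES-type arrays alone. Of 8 fixed germ cell genes limma called 0, and 4, all higher, had an unadjusted p under 0.05 (summed intensity 1489 to 3664 on the ES-type arrays, 3499 and 12636 in spheres, most of the last from Dppa3 at 9198).

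The sphere arrays were first set against the 3 ES-type arrays (ES cells without and with 4OHT and reverted cells), the 1 contrast with more than 1 array on each side. The spread in this fit holds the differences between the 3 ES-type conditions and between the sphere lines. Smarca2 rose and was the only chromatin gene that passed limma at an adjusted p under 0.05, and 0 fell. Over all 10589 genes tested, 0.963% were called higher and 1.47% lower, so 1 of 56 is near the background and is not a result about the chromatin genes as a set. At an unadjusted p under 0.05 there were 11, 6 higher and 5 lower, 19.6% of those tested against 18.9% of all genes. In 13 of the 56 both sphere arrays lay above all 3 ES-type arrays, and in 10 below them, where 19.1% and 18.5% of all genes did so. The median log2 difference was 0.10 over the chromatin genes and 0.00 over all genes.

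**Figure D1:**
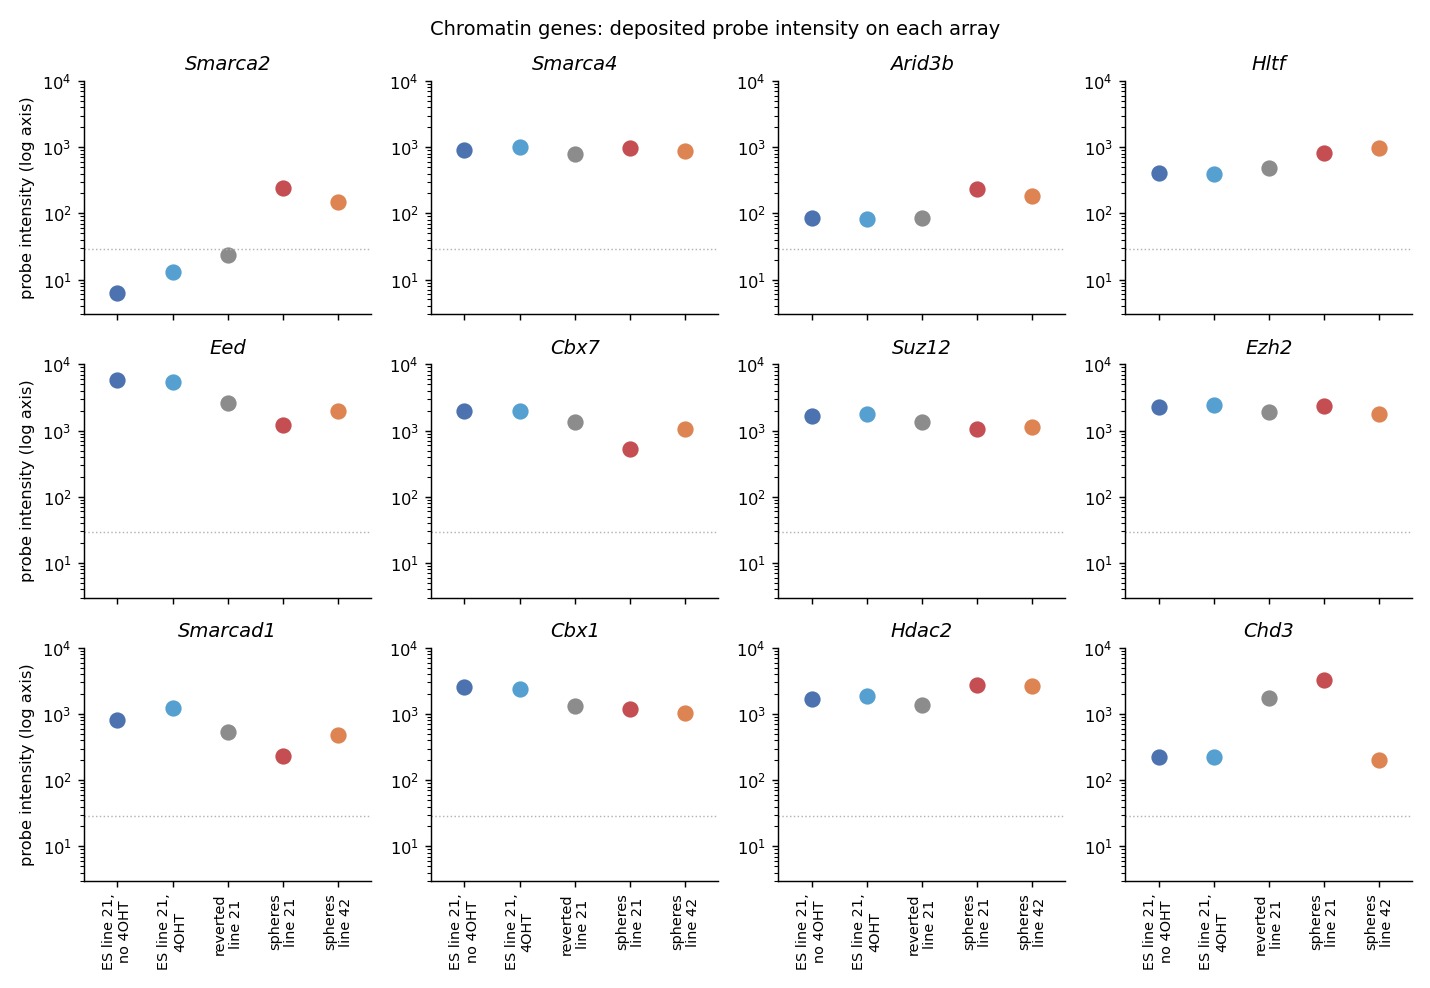
Deposited probe intensity of 12 chromatin genes (vertical log axis, no unit) on each of the 5 arrays (horizontal axis), 1 point per array, with the 40th percentile of the arrays as a dotted line. Smarca2 stands at 6.27 to 23.7 on the ES-type arrays and at 240 and 150 in spheres, while Smarca4 stays between 799 and 991. Eed is highest in ES cells (5892 and 5370) and lowest in spheres (1226 and 1994), and Chd3 is high only in reverted cells (1747) and line 21 spheres (3301).

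Among the SWI/SNF subunits, the alternative motor Smarca2 read 6.27, 13.0 and 23.7 on the ES-type arrays and 240 and 150 in spheres of line 21 and line 42. Every ES-type array was under the 40th percentile and both sphere arrays were far over it, with no overlap. On the log2(value + 1) scale the difference was 3.81 (SE 0.52), a 14.1-fold rise, with a limma adjusted p of 0.0311. The call rests on each array but that of reverted cells. The limma adjusted p was 0.0961 without ES cells without 4OHT, 0.107 without ES cells with 4OHT and 0.0196 without reverted cells. The differences were 3.40, 3.81 and 4.23. Calls over all genes, 258 in the main fit, were 0, 32 and 284 in these fits. Without line 21 or line 42 spheres the call also ended, with 1 sphere array left and a difference of 3.45 or 4.18. With no filter on dim probes the limma adjusted p was 0.0285. The difference lay between 2.28 (pseudocount 32) and 4.23 over these and the other alternatives.

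Spheres were grown on OP9 cells, so the fixed list of 18 stroma and fibroblast genes is given beside Smarca2. Its summed intensity was 2493 to 4555 on the ES-type arrays and 2662 and 831 in spheres, and of its 11 tested genes limma called 0 higher and 2 lower, Thy1 and Acta2 (at an unadjusted p under 0.05, 5 genes, 1 of them higher). Thy1, at 24.8 and 16.1 in spheres, passed the intensity filter through the ES-type arrays alone. The collagen gene Col1a1 stood at 18.6 to 36.0 on the ES-type arrays and at 17.5 and 17.0 in spheres, all but the reverted cells' value under the 40th percentile. Mgp, a matrix gene, differed between the lines, at 328 in line 21 and 10.1 in line 42 spheres. Of the adipocyte list, 1 of 4 tested genes was called higher, the fatty acid carrier Fabp4 (4.63 to 6.07 on the ES-type arrays, 183 and 143 in spheres). Over all genes tested, 0.963% were called higher. Fabp4 passed the intensity filter through the sphere arrays alone, so it was bound to differ to some degree. The summed intensity of this list was 260 to 524 on the ES-type arrays and 737 and 535 in spheres, and Cebpa had a difference of -0.41. The blood and endothelium list, summed at 207 to 446 and then 329 and 411, also had 1 of 4 called, Gata2 (16.7 to 43.1, then 181 and 183), while Gata1, Kdr and Pecam1 had differences of -0.34, -0.08 and -0.43. Whether RNA of other cells has a part in the Smarca2 values was not tested.

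The motor Smarca4, by contrast, read 922, 991, 799, 982 and 862. Spheres lay inside the range of the ES-type arrays, with a log2 difference of 0.03 (SE 0.23, limma adjusted p = 0.958) and a sign that changed with the array left out (-0.09 to 0.15). The core subunit Smarcb1 read 910, 890, 710, 1052 and 1210, both sphere arrays being the highest, at 0.44 (SE 0.24, limma adjusted p = 0.391). Smarce1, an HMG-box subunit, was low in both ES cell arrays at 142 and 141, then 295 in reverted cells and 462 and 203 in spheres, so the groups overlapped. The scaffold subunit Smarcc1 (157 to 193), Smarcd1 and Smarcd3, which link the complex to transcription factors, and the ARID subunits Arid1a and Arid2 had log2 differences between -0.21 and 0.27. Of the 9 SWI/SNF genes tested, limma called 1 higher and 0 lower, where 0.963% and 1.47% of all genes were called. The 1 was Smarca2, which passed the intensity filter through the sphere arrays alone, so this count is not a result about the complex.

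Of the 5 other SNF2-type motors, limma called none, while 3 had an unadjusted p under 0.05 (60%, and 18.9% of all genes). Hltf, a DNA translocase of replication fork repair that the platform lists as Smarca3, read 414, 395 and 477 on the ES-type arrays and 808 and 981 in spheres. Both spheres lay above all others, at log2 1.06 (SE 0.23, limma adjusted p = 0.0795). Smarcad1, a remodeller that helps keep silent chromatin in place, was the reverse, with 818, 1215 and 540 on the ES-type arrays and 234 and 475 in spheres. Its difference was -1.28 (SE 0.45, limma adjusted p = 0.206). The annealing helicase Smarcal1 was at 180 to 185 on the ES-type arrays, a narrow range, and at 290 and 265 in spheres, at 0.60 (limma adjusted p = 0.214). For the ISWI motors, Smarca5 had a difference of -0.28 and Smarca1 of -0.95, and Smarca1 read 42.2 in line 42 spheres against 92.7 to 146 elsewhere.

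The CHD remodellers, which carry a chromodomain, had 0 of 8 tested called by limma (0 at an unadjusted p under 0.05) and a median log2 difference of 0.48. In 2 of them (25%) both spheres lay above all ES-type arrays, against 19.1% of all genes. Chd1, which is known to keep ES cell chromatin open, read 258, 188 and 299 on the ES-type arrays and 367 and 423 in spheres. Chd6 read 41.6, 30.5 and 63.1, then 71.2 and 72.3. In both, the spheres were highest and reverted cells came next, with limma adjusted p of 0.273 and 0.333. Chd4, the motor of the nucleosome remodelling and deacetylase (NuRD) complex, stood at 1779 to 2554 on all arrays.

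Polycomb genes were split by subunit: limma called none of 9 tested, and the median difference was -0.09. At an unadjusted p under 0.05 there were 2 (22.2%, and 18.9% of all genes). In both spheres 4 lay lower (44.4%) and 2 higher (22.2%) than on all ES-type arrays, against 18.5% and 19.1% of all genes. The 4 lower were Eed, Cbx7, Suz12 and Ezh1. Ezh1 passed the intensity filter through an ES-type array alone, so it was bound to differ to some degree. Eed read 5892 and 5370 in ES cells, 2572 in reverted cells and 1226 and 1994 in spheres. Spheres were lowest and reverted cells stood between, at a log2 difference of -1.47 (SE 0.45), 2.76-fold, with a limma adjusted p of 0.163. Suz12, the PRC2 scaffold, read 1640, 1794, 1357, 1056 and 1133, at -0.53 (SE 0.24, limma adjusted p = 0.298), again lowest in spheres without overlap. The enzyme Ezh2 did not follow them. It read 2294, 2469, 1907, 2362 and 1813, with a difference of -0.09 (SE 0.26, limma adjusted p = 0.888), and the sphere values lay on both sides of that of reverted cells. The alternative enzyme Ezh1 was dim, at 15.7, 10.5, 35.7, 8.18 and 7.00, and passed the intensity filter through reverted cells only.

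In PRC1, the reader Cbx7 read 1994 and 2012 in ES cells, 1368 in reverted cells and 519 and 1065 in spheres, again in the order ES cells, reverted cells, spheres. The difference was -1.24 (SE 0.38), 2.36-fold, with a limma adjusted p of 0.161. The readers Cbx6 (38.9 to 46.3 on the ES-type arrays, 46.4 and 60.3 in spheres) and Cbx8 (25.6 to 35.8, then 39.7 and 41.3) were highest in spheres by small margins, at 0.32 and 0.43. Cbx2 read 33.8, 26.2, 23.3, 50.3 and 21.8, the highest and the lowest value both being spheres. Rnf2, the ubiquitin ligase, had a difference of 0.11 (699 to 1149 over all arrays). Bmi1, a partner of Rnf2, had no value in ES cells without 4OHT and 11.6 to 28.4 elsewhere.

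Heterochromatin protein 1 (HP1) readers bind methylated lysine 9 of histone H3. Cbx1 read 2556 and 2387 in ES cells, 1299 in reverted cells and 1192 and 1044 in spheres, at -0.83 (SE 0.37, limma adjusted p = 0.297). Reverted cells stood far closer to spheres than to ES cells. Cbx3 was the reverse, with 809, 641, 936, 1459 and 976, at 0.61 (limma adjusted p = 0.364), and its less bright probe, at 622, 431, 347, 1047 and 253, did not separate the groups. Cbx5 had a difference of -0.17.

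Of 5 histone deacetylase genes tested, limma called 0, and Hdac2 and Hdac6 had an unadjusted p under 0.05 (40%, and 18.9% of all genes). Hdac2, a subunit of several corepressor complexes, read 1669, 1862 and 1387 on the ES-type arrays and 2749 and 2665 in spheres. Both spheres lay above all others, at 0.74 (SE 0.24, limma adjusted p = 0.177). Hdac6, which mainly acts on tubulin in the cytoplasm, read 645, 745, 631, 437 and 484, at -0.54 (limma adjusted p = 0.256), lowest in both spheres. Hdac3, Hdac5 and Hdac10 differed by -0.08 to 0.25.

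None of 7 SET-domain genes tested separated the groups in either direction, where 19.1% of all genes were separated upward and 18.5% downward. By limma 0 of the 7 had an unadjusted p under 0.05 (18.9% of all genes), and 0 were called. Setd3, an actin histidine methyltransferase, differed by 0.03 (352 to 618 over all arrays), and Setd2, which trimethylates lysine 36 of histone H3, by -0.05 (168 to 254). Setd7 read 14.1, 15.8, 35.9, 9.62 and 16.6, high in reverted cells alone.

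Methyl-CpG-binding genes had 0 of 6 tested called by limma, and Mbd1 and Mbd2 had an unadjusted p under 0.05 (33.3%, and 18.9% of all genes). In 2 genes (33.3%) both spheres lay above all ES-type arrays, and in 3 (50%) below, against 19.1% and 18.5% of all genes. Mbd1, a repressor that binds methylated CpG, read 119, 142 and 74.4 on the ES-type arrays and 185 and 230 in spheres, at 0.93 (SE 0.34, limma adjusted p = 0.216). Mbd2 read 270, 303 and 342, then 177 and 194, at -0.71 (SE 0.22, limma adjusted p = 0.165). Its relative Mbd3, which with Mbd2 defines alternative forms of NuRD, read 643, 593 and 965, then 478 and 516, at -0.52 (limma adjusted p = 0.389). Spheres were thus highest for Mbd1 and lowest for Mbd2 and Mbd3, without overlap in each, and none passed the test.

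Among the other ARID genes, Arid3b, a DNA-binding protein, read 85.5, 81.1 and 85.1 on the ES-type arrays and 237 and 183 in spheres. The ES-type values were nearly level and both spheres lay above them, at 1.31 (SE 0.24), 2.48-fold. Its limma adjusted p was 0.0584, over the threshold of 0.05, so it was not called. Arid3a read 40.3, 47.9, 80.3, 73.6 and 89.1, with reverted cells between the spheres.

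**Figure D2:**
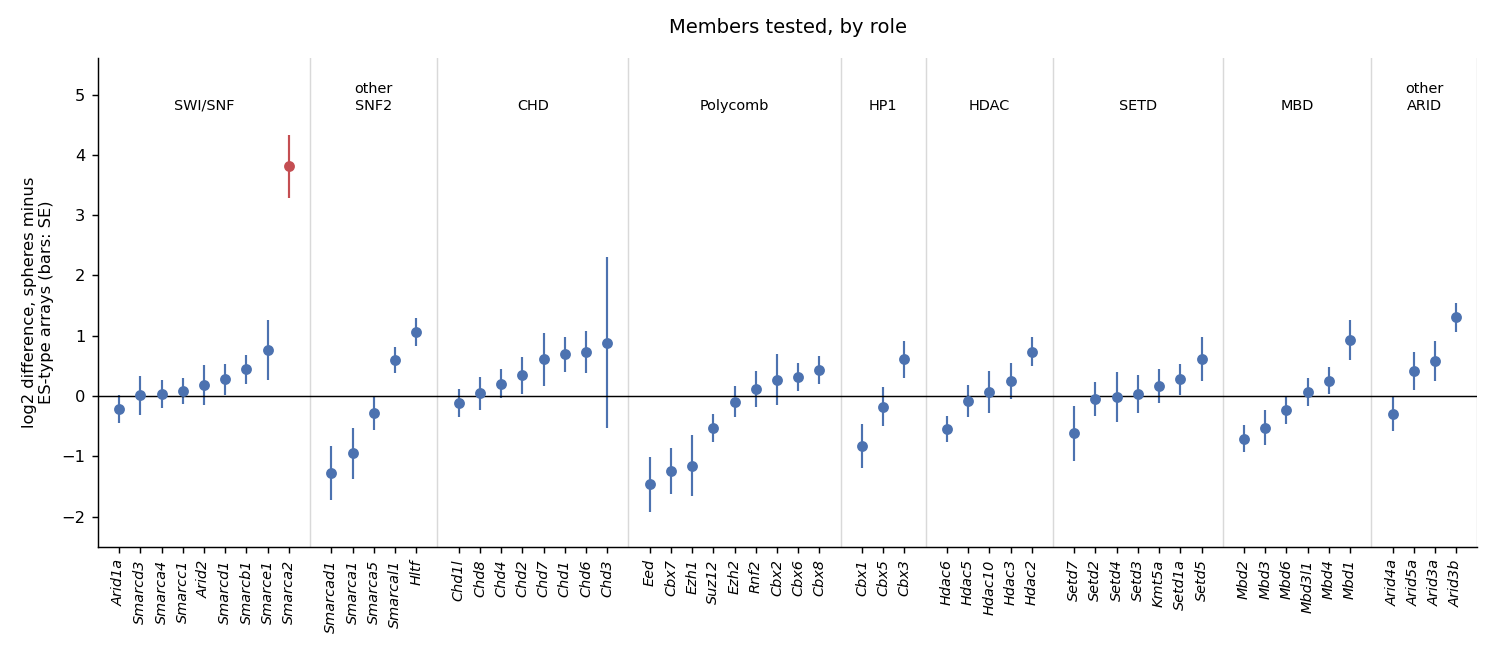
Log2 difference of spheres minus ES-type arrays (vertical axis, bars are standard errors of limma's fit on 5 arrays) for the 56 chromatin genes tested, grouped by role along the horizontal axis. Smarca2, in red at 3.81, is the 1 gene with an adjusted p under 0.05; Eed (-1.47), Smarcad1 (-1.28) and Cbx7 (-1.24) have the lowest differences.

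Both sphere arrays were next compared with ES cells without 4OHT, where 54 chromatin genes were tested and the count takes genes for which each line differed by 2-fold or more in a shared direction. Smarca2 was higher (log2 5.00 in line 21 and 4.28 in line 42), and Eed (-2.31 and -1.66), Cbx7 (-1.99 and -1.005) and Cbx1 (-1.15 and -1.39) were lower. The call of Cbx7 ended with pseudocount 8 and 32, under quantile normalization and without centring, and that of Cbx1 under quantile normalization. The background was 4.51% of 10283 genes higher and 6.01% lower, so 1 and 3 of 54 are near it. With 1 residual degree of freedom limma made 0 calls, 964 of all genes and 3 chromatin genes having an unadjusted p under 0.05, and the lowest adjusted p of a chromatin gene was 0.212. The count of higher genes depended on having both lines: it was 3 without line 21 spheres and 6 without line 42 spheres.

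Spheres and ES cells with 4OHT both had the kinase switched on. Between them, 5 of 54 were at least 2-fold higher in both lines and 2 lower, where 5.98% of 10407 genes were higher and 6.86% lower. The higher ones were Smarca2 (4.19 in line 21 and 3.47 in line 42), Arid3b (1.63 and 1.20), Chd6 (1.28 and 1.25), Hltf (1.12 and 1.35) and Chd1 (1.05 and 1.20). Eed (-2.04 and -1.39) and Smarcad1 (-2.28 and -1.32) were lower. With pseudocount 32 the calls of Arid3b, Chd6 and Chd1 ended, and that of Chd1 also under quantile normalization and without centring. Both sphere arrays also enter the comparison with ES cells without 4OHT, so these counts are not independent of those. limma called 0 genes (1212 of all genes and 7 chromatin genes at an unadjusted p under 0.05, lowest adjusted p of a chromatin gene 0.172). Without line 21 spheres the lower count was 4, and without line 42 spheres the higher count was 11.

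Adding 4OHT to ES cells, 1 array each and no replicate check, left every one of the 51 chromatin genes compared within 2-fold, while 2.56% of 9852 genes were at least 2-fold higher and 2.4% lower. The lowest differences were those of Setd4 (-0.78), Smarca1 (-0.73) and Hdac10 (-0.70), and the highest that of Smarcad1 (0.43). The median was -0.17, against -0.03 over all genes. Smarca2 was under the 40th percentile on both arrays and was not compared.

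Reverted cells were set against ES cells without 4OHT, again with 1 array each. Of 53 compared, 3 were at least 2-fold higher, Chd3 (2.85), Setd7 (1.19) and Ezh1 (1.04), and 2 lower, Eed (-1.29) and Cbx1 (-1.08). This is near the background of 5.18% higher and 6.34% lower among 9939 genes. Setd7 and Ezh1 read 14.1 and 15.7 in ES cells without 4OHT and 35.9 and 35.7 in reverted cells, values close to the 40th percentile, and with pseudocount 8 or 32 neither was 2-fold apart. The call of Cbx1 ended under quantile normalization (-0.88) and without centring (-0.98).

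Line 21 spheres were then compared with the cells reverted from them, 1 array each. Of 56 compared, 7 (12.5%) were at least 2-fold higher in spheres: Smarca2 (3.34), Chd7 (1.60), Arid3b (1.52), Mbd1 (1.36), Cbx2 (1.13), Arid5a (1.07) and Hdac2 (1.04). The 5 lower ones (8.93%) were Ezh1 (-1.95), Setd7 (-1.74), Cbx7 (-1.34), Smarcad1 (-1.15) and Eed (-1.02). Of 10034 genes, 7.58% were higher and 9.41% lower. Pseudocount 32 ended the calls of Arid5a, Cbx2, Ezh1 and Setd7, pseudocount 8 those of Arid5a and Cbx2, quantile normalization that of Arid5a, and leaving out the centring that of Hdac2. Chd7, a remodeller of enhancers, read 1535 in line 21 spheres and 525 in reverted cells, but 638 in line 42 spheres.

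To describe which differences were also seen in reverted cells, genes were chosen on line 42 spheres against ES cells with 4OHT and read on the other 3 arrays. In the choosing pair, 9.73% of 10170 genes were at least 2-fold higher and 11.2% lower, and 9 chromatin genes were chosen, 5 higher and 4 lower. In line 21 spheres against ES cells without 4OHT, 5 of the 9 differed by 2-fold or more in the direction of the choice (55.6%, and 48.8% of the 2084 genes chosen and valued). In reverted cells against the same ES cells, 3 were (33.3%, and 15.9% of all). These 3 were Smarca2 (log2 5.00 in line 21 spheres and 1.67 in reverted cells), Eed (-2.31 and -1.29) and Cbx1 (-1.15 and -1.08). The reverted value of Smarca2, 23.7 against 6.27, lies under the 40th percentile on both arrays. Arid3b (1.41 and -0.11) and Smarcad1 (-1.85 and -0.70) were at least 2-fold apart in spheres but not in reverted cells. Both readings share the array of ES cells without 4OHT.

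**Figure D3:**
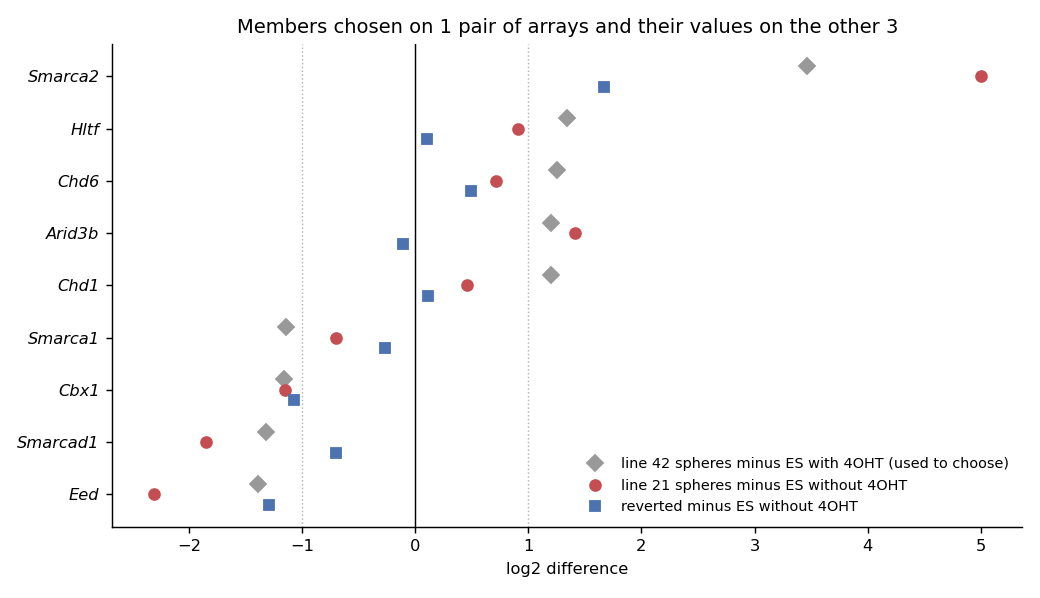
Log2 difference (horizontal axis) of the 9 chromatin genes chosen on line 42 spheres against ES cells with 4OHT (grey diamonds), read in line 21 spheres (red circles) and reverted cells (blue squares) against ES cells without 4OHT, with dotted lines at 2-fold. Blue squares pass the dotted lines for Smarca2 (1.67), Eed (-1.29) and Cbx1 (-1.08), and lie near 0 for Arid3b (-0.11), Hltf (0.10) and Chd1 (0.11).

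The sphere lines differed from each other in some of these genes, again with 1 array each. Of 54 compared, Setd4 was at least 2-fold higher in line 42 (log2 1.11), and Chd3 (-4.08), Chd7 (-1.32), Smarce1 (-1.24), Cbx2 (-1.22) and Smarca1 (-1.17) were lower, where 7.87% of 9954 genes were higher and 7.81% lower. With pseudocount 32 the calls of Setd4, Cbx2 and Smarca1 ended. Chd3, a NuRD motor, read 225 and 222 in ES cells, 1747 in reverted cells, 3301 in line 21 spheres and 202 in line 42 spheres. It was thus high on the arrays of line 21 spheres and of the cells derived from them, and low on the other 3. The second Chd3 probe, far dimmer, was also highest in line 21 spheres and next in reverted cells, with 9.99, 6.46, 26.0, 39.2 and 13.4.

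Partner genes of the same complexes, outside the naming rule, were read from fixed lists in the comparison of spheres with the 3 ES-type arrays. Over all 11 lists limma called 1 gene, the acetyltransferase and nuclear receptor coactivator Ncoa3, which fell from 84.4, 120 and 64.2 to 17.97 and 26.3 with a difference of -1.94 (SE 0.33, adjusted p = 0.0467). Ncoa3 passed the intensity filter through the ES-type arrays alone, so it was bound to differ to some degree. It belongs to the acetyltransferases, 11 tested with a median of -0.21. The count in that list was 0 with pseudocount 32, under quantile normalization, and without any 1 of ES cells without 4OHT, ES cells with 4OHT, line 21 spheres or line 42 spheres.

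Of 9 PRC2 partners tested, limma called 0, and 5 (55.6%) had an unadjusted p under 0.05, against 18.9% of all genes. The count of calls was 1 with pseudocount 32, without reverted cells and with limma's trend and robust options. Mtf2, which recruits PRC2 to CpG islands, read 5685, 5933 and 3890 on the ES-type arrays and 1899 and 1571 in spheres, at -1.55 (SE 0.29, limma adjusted p = 0.0595). Jarid2, another recruiting subunit, read 826, 936 and 646, then 332 and 348, at -1.22 (SE 0.25, limma adjusted p = 0.0716). In both the spheres lay lowest and reverted cells stood between, the order also shown by Eed, Cbx7 and Suz12. The list as a whole did not share it: Rbbp7 (16105) and Epop (475) were highest in reverted cells, and Rbbp4 (2117) was lowest there. Phf19, 1 of the 5 with an unadjusted p under 0.05, was higher in spheres, at 1.33. It read 15.7, 15.1 and 13.1, then 24.2 and 59.5, and passed the intensity filter through line 42 spheres alone. The list's median was -0.32.

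The 13 PRC1 partners tested spread both ways around a median of -0.09, with 0 called by limma. At an unadjusted p under 0.05 there were 5 (38.5%, and 18.9% of all genes). Phc2 (1.53), Ring1 (1.43) and Yaf2 (1.38) were higher in spheres, and Rybp (-1.22) and L3mbtl2 (-0.69) lower. Ring1 read 16.7, 11.2 and 14.9 on the ES-type arrays, then 51.9 and 30.2 in spheres. It passed the intensity filter through the sphere arrays alone, so it was bound to differ to some degree. Rybp, a subunit of the variant PRC1 forms, read 182, 274 and 84.8, then 67.8 and 69.7, at -1.22. Its relative Yaf2 was the reverse, with 14.3, 14.2 and 33.5, then 65.9 and 39.3, at 1.38. For both genes the reverted cells lay between ES cells and spheres, and the limma adjusted p was 0.261 and 0.186.

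Among 14 BAF partners the median was 0.29, and limma made 0 calls. At an unadjusted p under 0.05 there were 4 genes (28.6%, and 18.9% of all genes). Of the 14, 5 were separated upward (35.7%) and 1 downward (7.14%), against 19.1% and 18.5% of all genes. Bcl7c read 426, 339 and 444 on the ES-type arrays and 997 and 1159 in spheres, at 1.43 (SE 0.25, limma adjusted p = 0.0519). Bcl11b, a zinc finger subunit of BAF in lymphoid and neural cells, read 9.03, 13.2 and 18.5, then 49.9 and 38.1 (1.67, limma adjusted p = 0.0636). Bcl11b passed the intensity filter through the sphere arrays alone, so it was bound to differ to some degree. The count of calls in this list was 1 with pseudocount 8 and 32, with the filter at the 60th percentile, under quantile normalization, without centring, without reverted cells and with limma's trend and robust options.

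limma called 0 genes in the remaining 7 lists, where 0 to 4 genes per list (0% to 25%, and 18.9% of all genes) had an unadjusted p under 0.05. Of the H3K9 methylation genes, 4 (50%) lay lower and 0 higher in both spheres than on all ES-type arrays, against 18.5% and 19.1% of all genes. Trim28 of that list (-1.09), Sirt1 (-1.16) and Smyd2 of the trithorax and COMPASS list (1.08) were separated without overlap. Their limma adjusted p was 0.0762, 0.0875 and 0.0847. Medians were -0.17 for 18 trithorax and COMPASS genes, -0.25 for 8 genes of H3K9 methylation, -0.20 for 7 NuRD partners, -0.23 for 18 INO80, SRCAP and ISWI partners, 0.07 for 12 sirtuins and deacetylase partners and 0.06 for 8 arginine methyltransferases. Baz1b, an ISWI partner, was at least 2-fold lower in both spheres against each ES array, with 42.3, 50.3, 10.1, 14.7 and 7.49, the reverted value lying between the spheres. It passed the intensity filter through the ES cell arrays alone, so it was bound to differ to some degree. The 20 lysine demethylases tested, which the naming rule missed, had a median of -0.06 and 0 calls.

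**Figure D4:**
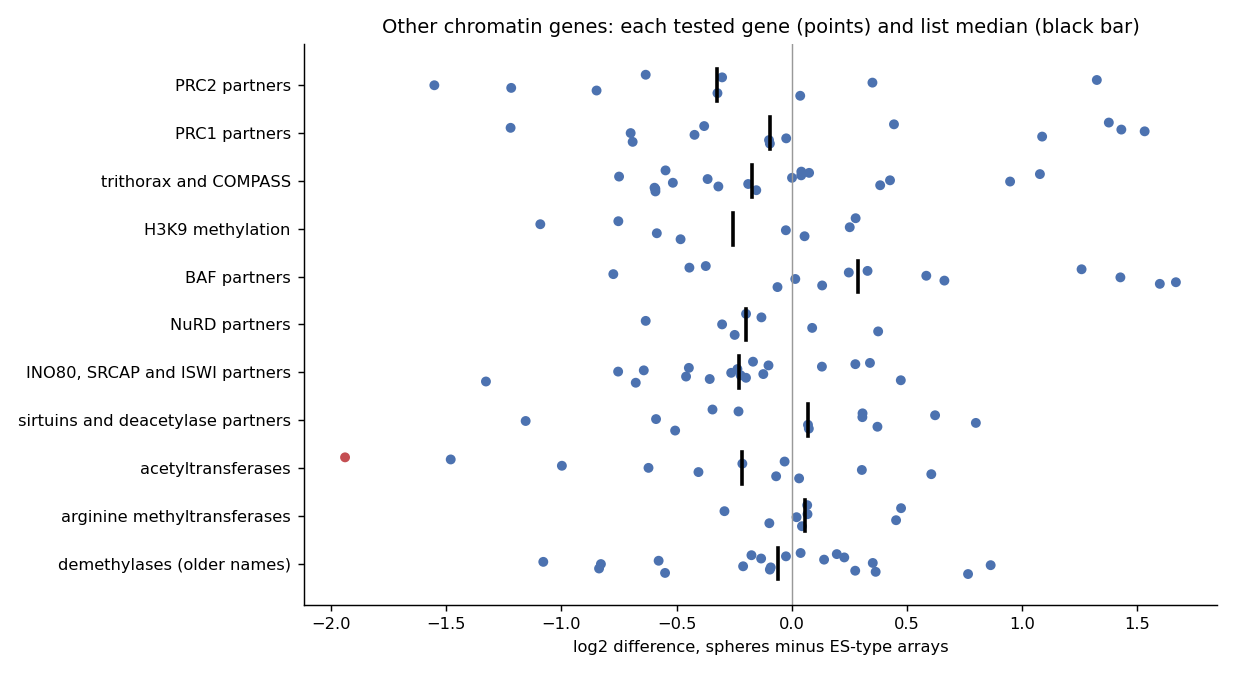
Log2 difference of spheres minus ES-type arrays (horizontal axis) for each tested gene of 11 fixed lists of other chromatin genes (points, vertical axis by list), with the list median as a black bar. Ncoa3, in red at -1.94 among the acetyltransferases, is the 1 gene with a limma adjusted p under 0.05; list medians lie between -0.32 (PRC2 partners) and 0.29 (BAF partners).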

How the data were processed

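Probe intensity values, 1 colour per array, were used as the authors deposited them, without detection flags. Per the labels, RNA was amplified to amino allyl antisense RNA and hybridised by the array maker's protocol. For the scanner, background correction, normalization and rule for empty cells, nothing is given in the sources used here. Symbols came from the platform annotation and were updated through RefSeq's gene table of GRCm38.p6 (12239 current, 3787 by synonym, 61 kept).

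Values were taken to log2(value + 1) and centred per array, by the median of the 18884 probes without an empty cell (shifts of -0.08 to 0.06). Fold differences are on this scale and understate the change of dim probes. Empty cells were not filled. limma's lmFit and eBayes (3.58.1, R 4.3.3), with Benjamini-Hochberg adjustment over all genes tested, were run on the whole table after a check on simulated data, and figures were drawn with Python 3.11.15 and matplotlib 3.10.9. Nothing says that arrays came from repeated cultures, so p-values measure only the spread between arrays, and 5 arrays limit the precision. The arrays pooled in a group differ in condition or line, and that spread includes these differences. Chromatin genes named in full were those called, those at least 2-fold apart in a comparison, and Smarca2, Smarca4, Eed, Ezh2 and Suz12 in any case. Those with the largest differences between spheres and ES-type arrays, and the brightest of each role group, were added. The chromatin genes and lists were chosen with earlier results of these data known. Alternatives covered the pseudocount, the filter, the normalization, the probe per gene, empty cells, the naming of members, the fold threshold, the test and each array left out.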

Additional observations from a re-analysis of the deposited data

Results flagged for a closer look

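In 4 chromatin genes, the 2 sphere lines lay on opposite sides of ES cells without 4OHT and at least 2-fold from each other. Each line has 1 array, so the difference was not tested. Chd3 was at log2 3.82 in line 21 and -0.26 in line 42 spheres, a difference of line 42 minus line 21 of -4.08. For Chd7 these were 1.00 and -0.32, a difference of -1.32. Cbx2, at 0.51 and -0.71, differed by -1.22. Setd4 was at -0.99 and 0.11, a difference of 1.11. For Cbx2 and Setd4 both lines were within 2-fold of ES cells without 4OHT.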

How the results depend on the processing

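No difference past its threshold changed direction under the alternatives run. Of the uncalled ones in spheres against the ES-type arrays, Chd3 (-1.16), Chd7 (-0.05) and Smarca4 (-0.09) turned negative without line 21 spheres, Smarca4 (-0.06) also without reverted cells, and Ezh2 turned positive (0.13) without line 42 spheres. Of the single chromatin genes 816 values stayed on their side of the threshold, 47 lost it and 6 gained it. The other values below are counts of chromatin genes. For spheres against the ES-type arrays, the higher count was 0 to 1 with each array left out in turn, and 3 higher and 4 lower were counted by 2-fold without overlap in place of limma. Against ES cells without 4OHT the higher count was 3 under quantile normalization, 2 without centring and 3 to 6 with 1 sphere array left out, and the lower count 1 under quantile normalization. Against ES cells with 4OHT the higher count was 2 with pseudocount 32 and the left-out counts reached 11 higher and 4 lower. For reverted cells against ES cells without 4OHT, the higher count was 1 with pseudocount 8, 1 with pseudocount 32, 5 with no filter and 1 with the filter at the 60th percentile, and the lower count 1 under quantile normalization, 1 without centring and 4 with members taken by current symbol. limma in place of 2-fold gave 0 higher and 0 lower in these 3 comparisons. For line 21 spheres against reverted cells, the lower count was 3 with pseudocount 32 and with the 60th percentile. Between sphere lines, pseudocount 32 gave 0 higher and 3 lower, no centring 3 higher, and current symbols 9 lower.

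With 1.5-fold in place of 2-fold, counts were 6 higher and 6 lower against ES cells without 4OHT, 9 and 7 against ES cells with 4OHT, 6 and 8 for reverted cells, 13 higher for line 21 spheres against reverted cells, 5 lower with 4OHT in ES cells, and 5 higher and 13 lower between sphere lines. The genes chosen on line 42 spheres were then 22, of which 15 went the same way in line 21 spheres and 7 in reverted cells. Beyond the shorter or longer list of genes each setting tests, the cause of these moves was not tested. Signal limits dim genes, and 12 of the 68 could not be tested. Smarca2 has ES-type values of 6.27 to 23.7, all under the 40th percentile, and the lowest listed intensity of the arrays was 2.96 to 3.66. No paired analysis by line was possible, because line 42 has a sphere array only and the ES-type arrays are all of line 21.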
